A study of Homo sapiens with 16 samples.

Results

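The Krüppel-like factor (KLF) genes are described here across 16 RNA-seq libraries of KG-1, an established human acute myeloid leukemia (AML) cell line of myeloblast-like cells. The 10 genes are KLF2, KLF3, KLF4, KLF5, KLF6, KLF7, KLF9, KLF10, KLF11 and KLF13, out of 43836 genes in the count table. They were selected on the KLF2 level after MK-2206, which was far above that with DMSO, so values of the MK-2206 comparison are a description without a test. KLF2 is likewise left untested wherever the control DMSO libraries enter, since those libraries took part in the choice. The study examined the mutual dependence of the kinase AKT and the transcription factor FOXM1 in AML.

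The libraries fell into 8 conditions of 2 biological replicates each. All cells carried a lentiviral pLKO.1 vector and had been selected with puromycin. Control cells expressed a non-target shRNA, and FOXM1-KD cells a stable shRNA against FOXM1. Control cells received 0.3% DMSO (the solvent) for 48 h, 50 μM STL427944 for 48 h, 0.75 μM AraC for 48 h, 100 nM venetoclax for 48 h, or 30 μM MK-2206 for 24 h. FOXM1-KD cells received DMSO, AraC or venetoclax at the same doses and for 48 h. MK-2206 is an allosteric AKT inhibitor, AraC (cytarabine) is a nucleoside analog that blocks DNA synthesis, and venetoclax inhibits BCL2. Because MK-2206 was given for 24 h and DMSO for 48 h, drug and time cannot be told apart in that comparison.

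KLF proteins bind GC-rich and CACCC sequences through zinc fingers at their C-terminus, and they activate or repress transcription depending on the partners that their N-terminal parts recruit. KLF2 maintains quiescence in T cells and endothelium and is known as an immediate target of the ERK5 (MAPK7) and MEF2 pathway and of FOXO factors, which AKT holds inactive. KLF4 promotes monocytic differentiation in myeloid cells, and KLF5 and KLF6 also act in myeloid maturation and activation. KLF3 is a repressor that works with CtBP, whereas KLF9, KLF10, KLF11 and KLF13 form a subgroup that recruits the SIN3 corepressor. KLF10 and KLF11 are early genes of TGF-beta signaling, and KLF9 is induced by glucocorticoids.

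The start regions of 2 members are printed: KLF2, from which the choice began, and KLF13, whose condition means differed least among the 10 genes. Each run holds the 250 bases before the RefSeq transcription start on the plus strand of GRCh38.p14, chr19:16324576-16324825 for KLF2 and chr15:31326585-31326834 for KLF13. Capitals mark matches to GGGCGG or CACCC on either strand and a match to the MEF2 motif.
KLF2: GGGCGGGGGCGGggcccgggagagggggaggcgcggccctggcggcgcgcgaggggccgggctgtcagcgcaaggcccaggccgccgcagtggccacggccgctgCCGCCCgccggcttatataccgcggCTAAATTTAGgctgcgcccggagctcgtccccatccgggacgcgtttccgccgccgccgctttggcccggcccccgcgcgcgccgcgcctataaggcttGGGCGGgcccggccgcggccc
KLF13: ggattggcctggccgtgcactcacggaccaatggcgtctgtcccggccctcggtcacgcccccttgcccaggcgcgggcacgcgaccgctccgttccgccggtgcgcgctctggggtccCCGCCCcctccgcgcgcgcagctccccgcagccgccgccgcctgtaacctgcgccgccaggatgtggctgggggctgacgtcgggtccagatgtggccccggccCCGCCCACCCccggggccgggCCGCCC
Both runs hold several GGGCGG matches. The CACCC match of KLF13, at positions -22 to -18 from the start, shares its first base with a GGGCGG match on the other strand. The single MEF2 match of KLF2 lies at positions -120 to -111.

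Start windows of 300 bases (250 before to 50 after the start) were present for 8 of the 10 genes, 13 windows in all, and not for KLF3 and KLF10. GGGCGG was found in 8 of the 13 windows, against 45% of 35116 windows of all genes, and CACCC in 7 of 13, against 59.9%. The whole KLF2 window held 6 GGGCGG matches and 80.7% G or C, where the median window had 58.7%. A MEF2 match was found only in the KLF2 window among the 13 and in 2.99% of all windows. The forkhead motif TGTTTAC and the AP-1 motif TGANTCA were in 0 of 13 windows (3.42% and 7.71% of all), the CRE TGACGTCA in 1 window of KLF11 (1.85% of all) and the E-box CACGTG in 4 (7.26% of all). CCAAT was in 6 of 13 (34.6% of all) and TATAAA in 1 window of KLF5 (11.5% of all). Such matches describe the sequence and do not show binding.

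Several libraries stood apart from the rest. Counts on genes ran from 7351755 to 21362546 per library, the 2 MK-2206 libraries being the lowest, and mitochondrial transcripts took 6.68% and 18.4% of their counts against 1.32% to 3.05% elsewhere. Across 13648 protein-coding genes, Pearson's r between 2 libraries was 0.962 to 0.997 among control cells without MK-2206, 0.768 to 0.82 between these and FOXM1-KD cells, 0.613 to 0.678 between these and MK-2206, and 0.766 to 0.818 between MK-2206 and FOXM1-KD. CD34, the stem cell antigen that defines KG-1, had 12483 to 28951 counts in control cells without MK-2206, 7 and 18 with MK-2206, and 0 to 4 in FOXM1-KD cells. The summed level of 4 granulocyte precursor markers (MPO, ELANE, AZU1, PRTN3) was at most 12.5 CPM (counts as a part of the library total, after TMM scaling) in control cells without MK-2206, 417 to 597 with MK-2206 and 1810 to 14200 in FOXM1-KD cells. That of 4 monocyte markers (CD14, LYZ, CSF1R, FCN1) was 6.24 to 40.7, 13.9 to 15.9 and 552 to 2710 CPM, in the same order. In FOXM1-KD cells nearly all of this sum was LYZ (548 to 2710 CPM). There CSF1R was at most 18.6 CPM, CD14 at most 6.96 CPM, and FCN1 had at most 2 counts. Over the same 3 sets of libraries, the 6 markers of KG-1 blasts summed to 2010 to 2780, 194 to 266 and 641 to 1020 CPM, and the 3 endothelial markers to 88.1 to 170, 12.4 to 14.7 and 5.75 to 48.3 CPM. Single markers went against these sums. With DMSO, mean CD33 and SPI1 were higher in FOXM1-KD cells (92.1 and 168 CPM) than in control cells (38.1 and 112), and the other blast markers were lower. With MK-2206, mean PECAM1 was lower than with DMSO (3.67 against 158 CPM), and VWF was higher (9.5 against 0.905). The erythroid list, at most 3.57 CPM in any library, the B cell list, at most 8.24, and the T cell list, at most 11.1, were low throughout, and the megakaryocyte list was at 10.8 to 64.8, 2.29 to 2.31 and 0.211 to 6.25 CPM. In CD34 the MK-2206 and FOXM1-KD libraries thus go against the defining marker of the labelled line. Whether their cultures differed from the other control cultures in more than the drug or the shRNA was not tested, and each fold change of MK-2206 against DMSO and of FOXM1-KD against control carries that limit. The part of these differences in the KLF values was not tested, and in bulk RNA a change in the number of cells of a type and a change per cell cannot be told apart.

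FOXM1 transcript, the target of the shRNA, was lower in FOXM1-KD cells under each treatment. It stood at 2554 and 2515 counts in control cells with DMSO and at 923 and 1551 in FOXM1-KD cells, a log2 fold change of -1.08 ± 0.28 (SE, edgeR adjusted p = 0.056). Under AraC the difference was -0.56 ± 0.19 (edgeR adjusted p = 0.0124), less than 2-fold. FOXM1-KD libraries with AraC held 121 and 114 CPM of FOXM1, where control libraries with STL427944 held 137 and 112. Under venetoclax the difference was -1.20 ± 0.38 (edgeR adjusted p = 0.0113).

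**Figure D1:**
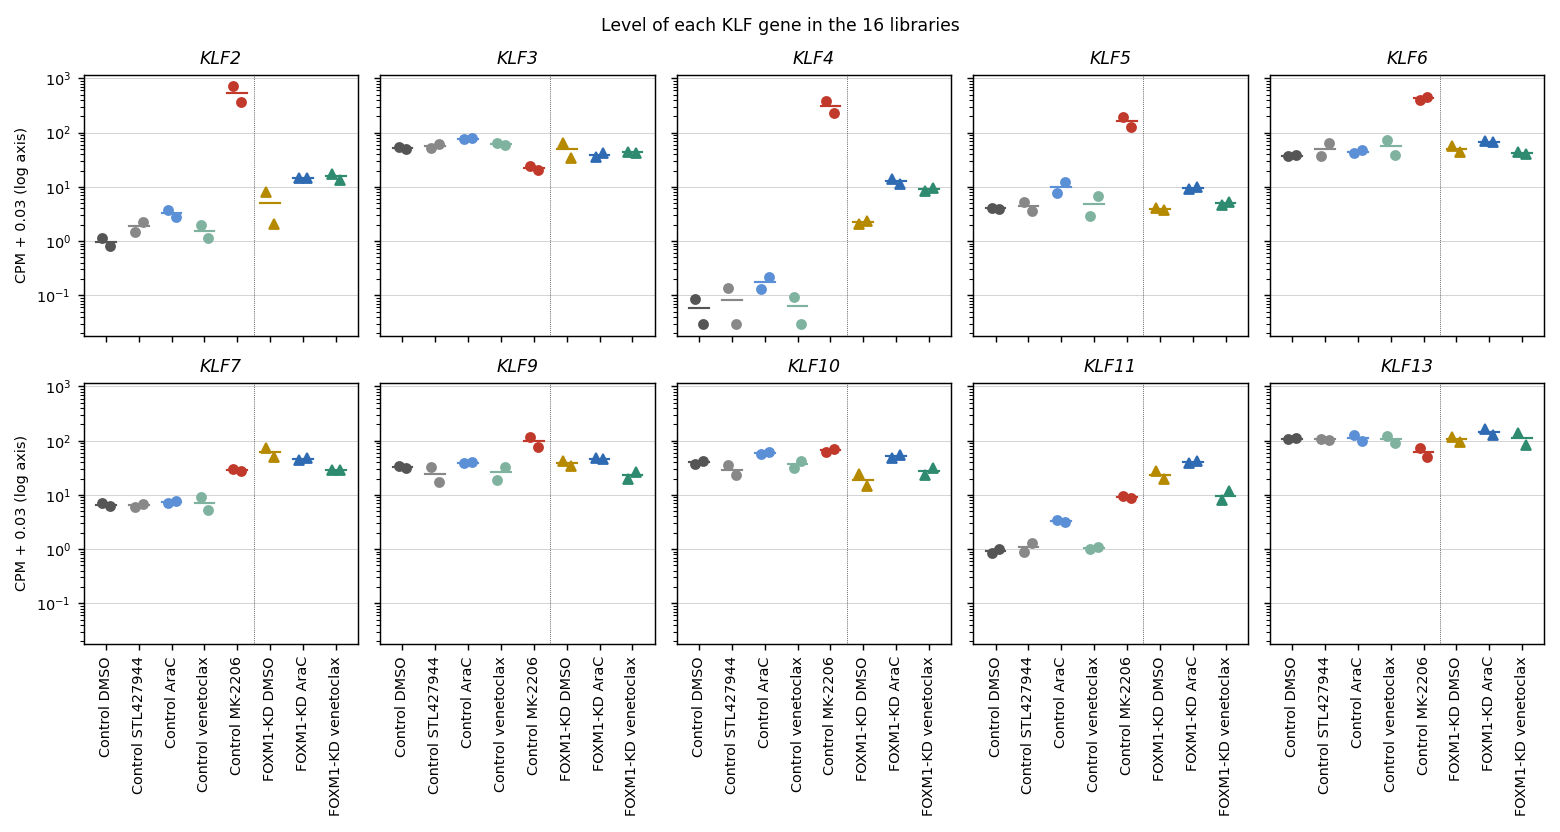
Level of each KLF gene in the 16 libraries, as CPM plus 0.03 on a log axis, with 1 point per library and a bar at the mean of the 2 libraries of a condition (circles, control cells, and triangles, FOXM1-KD cells). KLF2, KLF4, KLF5 and KLF6 are above 100 CPM in both MK-2206 libraries and in no other library. KLF7 and KLF11 are higher in every FOXM1-KD library than in every control library without MK-2206, and KLF13 stays between 49.2 and 161 CPM.

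After MK-2206 the make-up of KLF transcript changed from one led by KLF13 to one led by KLF2. KLF2 had 20 and 14 counts in the control DMSO libraries (1.1 and 0.769 CPM) and 4999 and 3214 in the MK-2206 libraries (714 and 371 CPM). Both MK-2206 libraries lay far above the DMSO libraries and differed widely from each other (543 ± 242 CPM, SD, n = 2). The log2 fold change was 9.23 ± 0.33 (SE), and 8.67 to 9.60 when any of the 4 libraries was left out. KLF4 was nearly absent before treatment, with 1 and 0 counts, and had 2675 and 1965 counts after it (382 and 227 CPM). The ratio of its scaled pooled counts was 10800, with an exact binomial 95% interval of 1940 to 427000 that covers counting error only. KLF5 went from 4.00 and 3.96 CPM to 193 and 129 CPM (log2 fold change 5.40 ± 0.29), and KLF6, a broadly expressed early gene, from 37.2 and 37.9 to 405 and 448 CPM (3.58 ± 0.26).

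The remaining members moved less with MK-2206, and 2 of them were lower. KLF11 was at 0.822 and 0.989 CPM with DMSO and at 9.71 and 8.9 with MK-2206 (log2 fold change 3.41 ± 0.44). KLF7 was at 6.96 and 6.15 against 29.4 and 27.2 CPM (2.18 ± 0.31), and KLF9 at 34.3 and 31.4 against 118 and 75.9 CPM (1.63 ± 0.28). KLF10 had a smaller log2 difference of 0.80 ± 0.28. The repressor KLF3 was lower, at 54.6 and 49.8 CPM with DMSO and 24.3 and 20.3 with MK-2206 (-1.16 ± 0.29), as did KLF13, at 107 and 111 against 72.3 and 49.2 CPM (-0.78 ± 0.27). Of the 10 genes, 7 were at least 2-fold higher and 1 at least 2-fold lower, where 50.5% and 25.5% of 28905 genes with a count were (76% in either direction). These values chose the genes and support nothing further. Over protein-coding genes, the median of the log2 fold changes with MK-2206 was 0.43 with TMM scaling, 0.21 with total counts only and 0.53 with the size factors of DESeq2. Over those with a mean of at least 1 CPM it was -0.31, -0.53 and -0.21, in the same order. Each fold change is thus relative to a zero point that moves with the scaling and with the genes taken. With total counts KLF10 stood at 0.57.

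Compared per kilobase of exon, the scale on which levels of different genes may be set side by side, KLF13 was the most abundant member in control cells with DMSO at 11.6 CPM per kb, followed by KLF10 at 10.5 and KLF3 at 7.71. After MK-2206 the order was KLF2 at 192, KLF4 at 83.2, KLF6 at 69.5 and KLF5 at 43.7 CPM per kb. KLF2 thereby made up 43.7% of the per-kb sum of the 10 genes after MK-2206 against 0.743% with DMSO, and KLF13 made up 1.47% against 26.1%. In FOXM1-KD cells KLF13 kept the first place under each treatment, at 11.3, 15.2 and 11.8 CPM per kb with DMSO, AraC and venetoclax. KLF4 was the lowest member in all control conditions but MK-2206, where KLF11 was (2.03 CPM per kb).

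**Figure D2:**
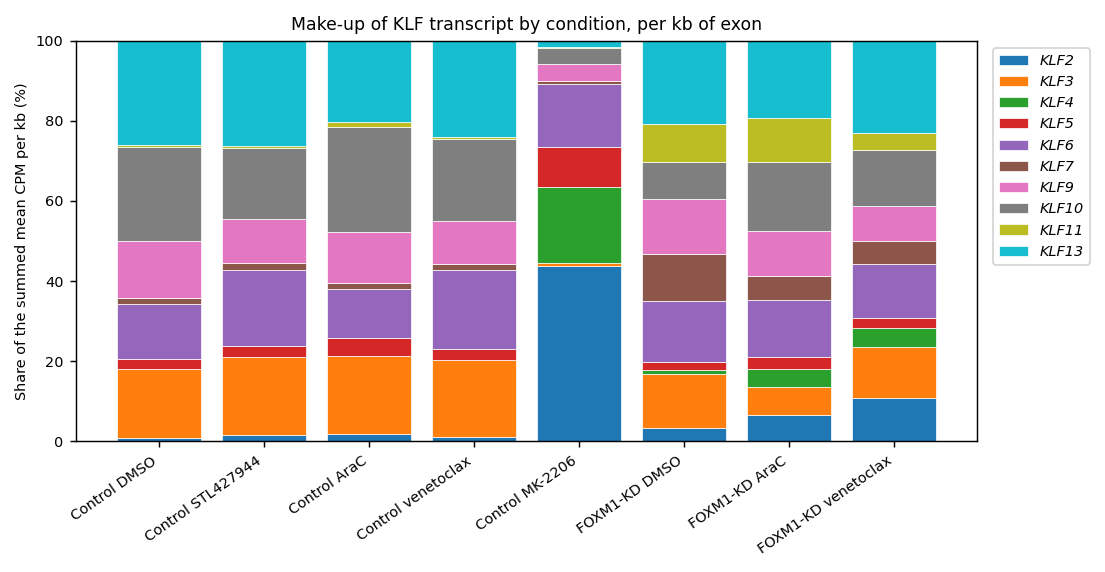
Share of each KLF gene in the summed mean CPM per kb of the 10 genes, by condition (n = 2 libraries each), as stacked bars that add up to 100%. KLF13 takes 19.2% to 26.3% of the sum in every condition but MK-2206 (1.47%), and KLF2 takes 43.7% with MK-2206 and at most 10.8% elsewhere.

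The comparisons of FOXM1-KD with control cells asked which KLF genes differ between cells with the shRNA against FOXM1 and cells with the non-target shRNA. A gene was called at a change of at least 2-fold with an adjusted p below 0.1. KLF4, KLF7 and KLF11 were called higher in FOXM1-KD cells under DMSO, AraC and venetoclax, and KLF2 under AraC and venetoclax, where it was tested. Under DMSO 4 of 9 tested members were called, 3 higher and 1 lower, against 25.1% of all genes (11.3% higher, 13.7% lower). Under AraC 5 of 10 were called (4 higher, 1 lower) against 29.3% (15.2% and 14%), and under venetoclax 4 of 10 (all higher) against 24.3% (10.8% and 13.5%). The median log2 fold change of the tested members was 0.23, 0.43 and 0.03, against -0.03, 0.08 and 0.11 over all genes.

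KLF11 had the largest fitted change after KLF4 under DMSO. It was at 0.822 and 0.989 CPM in control cells and at 27.4 and 19.9 in FOXM1-KD cells, a log2 fold change of 4.71 ± 0.28 (edgeR adjusted p = 0.00207). Under AraC it was at 3.36 and 3.14 against 39.2 and 41.5 CPM (3.59 ± 0.26, edgeR adjusted p = 3.46e-38), and under venetoclax at 0.965 and 1.07 against 7.86 and 11.6 CPM (3.24 ± 0.56, edgeR adjusted p = 5.59e-07). Every FOXM1-KD library lay above every control library of the same treatment. KLF7, a factor known from neuronal development, was at 6.96 and 6.15 CPM in control cells with DMSO and at 72.4 and 50 in FOXM1-KD cells (3.23 ± 0.23, edgeR adjusted p = 0.00305). It was 2.60 ± 0.24 log2 units higher under AraC (44.1 and 48.3 against 6.98 and 7.84 CPM, edgeR adjusted p = 1.48e-23) and 2.01 ± 0.45 under venetoclax (29.1 and 28.5 against 9.07 and 5.27 CPM, edgeR adjusted p = 0.000126). The groups did not overlap in any of the 3 comparisons, and both genes were called whichever library was left out.

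KLF4 had 0 to 4 counts in each control library without MK-2206 and 39 to 237 in each FOXM1-KD library. Under DMSO the FOXM1-KD libraries held 39 and 44 counts against 1 and 0, a ratio of scaled pooled counts of 79.9 with an exact 95% counting interval of 13.9 to 3190 (edgeR adjusted p = 0.00681). Under AraC they held 237 and 214 against 2 and 4, a ratio of 84.4 with an interval of 38.5 to 231 (edgeR adjusted p = 2.01e-49). Under venetoclax they held 122 and 159 against 1 and 0, a ratio of 323 with an interval of 57.5 to 12800 (edgeR adjusted p = 1.87e-17). At 2.06 to 14 CPM in FOXM1-KD cells, KLF4 stayed below the 227 and 382 CPM of the MK-2206 libraries.

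KLF2 was also higher in FOXM1-KD cells. Under AraC it was at 14.4 and 14.3 CPM against 3.67 and 2.76 in control cells, a log2 fold change of 2.12 ± 0.27 (edgeR adjusted p = 4.34e-14). Under venetoclax it was at 17.5 and 13.6 against 1.93 and 1.12 CPM (3.35 ± 0.52, edgeR adjusted p = 1.93e-08). With DMSO the FOXM1-KD libraries differed widely from each other, at 8.09 and 2 CPM (153 and 38 counts). The untested log2 fold change there was 2.43 ± 0.80, and 1.08 without replicate 1 of FOXM1-KD DMSO.

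Fewer calls were made in the other direction. KLF10 was at 23.9 and 14.5 CPM in FOXM1-KD cells with DMSO against 37.9 and 42.7 in control cells (-1.06 ± 0.27, edgeR adjusted p = 0.0518). This call was lost without either control DMSO library (adjusted p = 0.18 and 0.23) and without replicate 2 of FOXM1-KD DMSO, where the log2 fold change was -0.76. KLF3 was at 35 and 41.4 CPM in FOXM1-KD cells with AraC against 76.3 and 79.2 in control cells (-1.07 ± 0.22, edgeR adjusted p = 7.72e-06). It passed the 2-fold limit narrowly and missed it with total counts only (-0.99) and without replicate 1 of FOXM1-KD AraC (-0.95). KLF3 shares 265 exonic bases with its antisense gene KLF3-AS1, which had at most 40 counts in any library. KLF6 under AraC was 0.57 ± 0.22 log2 units higher in FOXM1-KD cells (69.1 and 67.1 against 42.1 and 47.2 CPM, edgeR adjusted p = 0.0268) and stayed under 2-fold. KLF5, KLF9 and KLF13 were called in none of these comparisons. KLF5 was at 3.97 and 3.69 CPM in FOXM1-KD cells with DMSO and at 4.00 and 3.96 in control cells, and the groups overlapped.

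**Figure D3:**
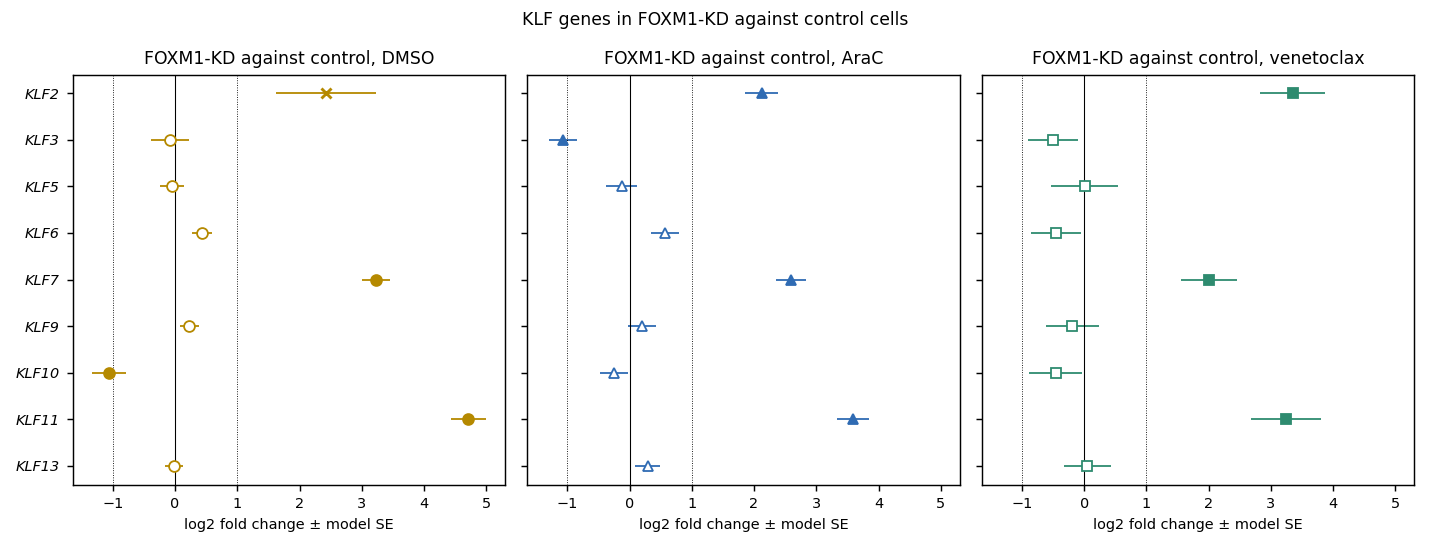
Log2 fold change of 9 KLF genes in FOXM1-KD against control cells under DMSO, AraC and venetoclax, with bars of 1 model SE (4 libraries per panel, dotted lines at 2-fold). Filled symbols were called, open symbols were not, and the cross (KLF2 under DMSO) was not tested, while KLF4 is left out because its control libraries are near 0. KLF7 and KLF11 are filled on the right in each panel, from 2.01 to 4.71.

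AraC was compared with DMSO within each cell line to see which KLF genes respond to the drug. In control cells 2 of 9 tested members were called, both higher, against 6.69% of all genes (4.52% higher, 2.17% lower). KLF5 was at 7.75 and 12.1 CPM with AraC against 4.00 and 3.96 with DMSO (1.30 ± 0.24, edgeR adjusted p = 0.0012), and KLF11 at 3.36 and 3.14 against 0.822 and 0.989 CPM (1.82 ± 0.32, edgeR adjusted p = 0.000659). KLF3 and KLF10 were higher by less than 2-fold, at 0.56 ± 0.14 (edgeR adjusted p = 0.0108) and 0.55 ± 0.14 (edgeR adjusted p = 0.0168). KLF2 was at 3.67 and 2.76 against 1.1 and 0.769 CPM, an untested log2 difference of 1.76 ± 0.33. Leaving out either AraC library left 0 calls among all genes, with log2 fold changes of 0.97 to 1.59 for KLF5 and 1.69 to 1.95 for KLF11 over the 4 omissions.

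In FOXM1-KD cells AraC raised KLF2, KLF4, KLF5 and KLF10, 4 of 10 members against 11.6% of all genes (9.03% higher, 2.57% lower). KLF4 went from 2.06 and 2.32 CPM to 14 and 11.3 (2.45 ± 0.37, edgeR adjusted p = 9.13e-09), and KLF2 from 8.09 and 2 to 14.4 and 14.3 CPM (1.43 ± 0.34, edgeR adjusted p = 0.000738). KLF10 went from 23.9 and 14.5 to 48.6 and 54.2 CPM (1.35 ± 0.29, edgeR adjusted p = 0.000118), and KLF5 from 3.97 and 3.69 to 8.97 and 9.74 CPM (1.21 ± 0.36, edgeR adjusted p = 0.0109). In each of these genes both AraC libraries were above both DMSO libraries. The value of KLF2 turned on 1 DMSO library: it was 0.75 and no longer called without replicate 2, and 2.74 without replicate 1. Leaving out either AraC library again left 0 calls among all genes. Of all genes called, 77.8% were higher with TMM and 87.9% with total counts only. The median log2 fold change of tested members was 0.55 in control and 0.52 in FOXM1-KD cells, against -0.01 and 0.03 over all genes.

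With venetoclax, KLF genes were called in FOXM1-KD cells. In control cells edgeR called 0 of 9 tested members and 0% of all genes, 0 members were below an unadjusted p of 0.05 and DESeq2 called 0. KLF6 was at 74.8 and 39.5 CPM with venetoclax and 37.2 and 37.9 with DMSO, a spread between replicates that covers most of the difference. In FOXM1-KD cells 4 of 10 members were called, 2 higher and 2 lower, against 2.09% of all genes (1.51% higher, 0.578% lower). KLF2 was at 17.5 and 13.6 CPM with venetoclax against 8.09 and 2 with DMSO (1.64 ± 0.39, edgeR adjusted p = 0.00343), and KLF4 at 8.34 and 9.49 against 2.06 and 2.32 CPM (2.04 ± 0.43, edgeR adjusted p = 0.000581). KLF11 was lower, at 7.86 and 11.6 against 27.4 and 19.9 CPM (-1.26 ± 0.36, edgeR adjusted p = 0.0368), as was KLF7, at 29.1 and 28.5 against 72.4 and 50 CPM (-1.07 ± 0.32, edgeR adjusted p = 0.0562). The drug and DMSO libraries did not overlap in any of these 4 genes. The calls were fragile to the loss of a library: 0 members were called without either FOXM1-KD venetoclax library, where 0 genes in all were, and 1 member without either FOXM1-KD DMSO library. Over the 4 omissions the log2 fold change was 0.95 to 2.96 for KLF2, 1.93 to 2.13 for KLF4, -1.32 to -0.79 for KLF7 and -1.58 to -1.02 for KLF11.

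**Figure D4:**
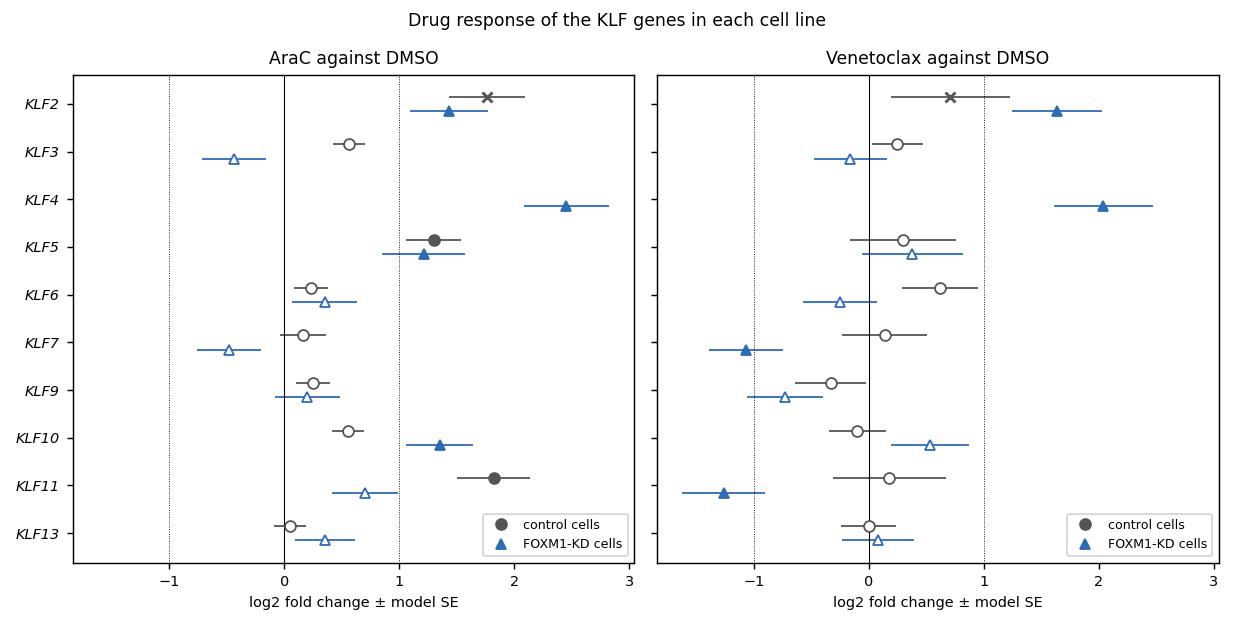
Log2 fold change of the KLF genes with AraC and with venetoclax against DMSO, in control cells (circles) and FOXM1-KD cells (triangles), with bars of 1 model SE (4 libraries each, dotted lines at 2-fold). Filled symbols were called, open symbols were not, crosses mark KLF2 in control cells (not tested), and KLF4 in control cells is left out because its libraries are near 0. With venetoclax KLF2 and KLF4 lie at 1.64 and 2.04 and KLF7 and KLF11 at -1.07 and -1.26 in FOXM1-KD cells, and each of these calls is lost when a venetoclax library is left out.

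No KLF gene was called with STL427944, a compound given here by its code name. edgeR called 0 of 9 tested members and 0% of all genes, 0 members were below an unadjusted p of 0.05, and DESeq2 called 0 members. KLF2 was at 1.45 and 2.22 CPM against 1.1 and 0.769 with DMSO, an untested log2 difference of 0.98 ± 0.54. KLF4 held 2 and 0 counts, and KLF11 0.857 and 1.25 CPM against 0.822 and 0.989. The 2 STL427944 libraries differed in KLF6 (36.8 and 63.9 CPM), KLF9 (32.3 and 17.3 CPM) and KLF10 (35.1 and 22.9 CPM).

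Whether a drug response differed between the cell lines was tested with an interaction term over 8 libraries. With AraC edgeR called 0 of 9 members against 5.13% of all genes (3.94% higher, 1.19% lower), with 3 members below an unadjusted p of 0.05, and DESeq2 called 0. KLF3 had the lowest p: it was at 54.6 and 49.8 CPM with DMSO and 76.3 and 79.2 with AraC in control cells, and at 63.9 and 34.6 against 35 and 41.4 CPM in FOXM1-KD cells. The log2 difference of the responses was -0.92 ± 0.30 (edgeR adjusted p = 0.0408), less than 2-fold, and it ran from -1.43 to -0.41 without replicate 2 and replicate 1 of FOXM1-KD DMSO. For KLF10 it was 0.88 ± 0.31 (edgeR adjusted p = 0.0704), with 1.28 and 0.43 without replicate 1 and replicate 2 of the same group, and for KLF11 it was -1.04 ± 0.43 (edgeR adjusted p = 0.174). With venetoclax edgeR called 0 of 9 members against 0.743% of all genes (0.481% higher, 0.261% lower), with 3 members below an unadjusted p of 0.05, and DESeq2 called 0. The difference was -1.20 ± 0.48 for KLF7 (edgeR adjusted p = 0.561) and -1.45 ± 0.63 for KLF11 (edgeR adjusted p = 0.738), so a different response to venetoclax in the 2 cell lines was not shown for either gene.

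Genes around the KLF family were taken from 8 lists of 51 genes, of which 19 of 50 tested were called in FOXM1-KD cells under DMSO (10 higher, 9 lower), 22 of 49 under AraC (12 higher, 10 lower) and 23 of 50 under venetoclax (11 higher, 12 lower). Over all genes tested, 25.1%, 29.3% and 24.3% were called in these comparisons, in this order. Among 13 genes that act upstream of KLF2, 3, 3 and 8 were called, with medians of -0.36, -0.15 and -0.66, against 25.1%, 29.3% and 24.3% of all genes, so that the counts under DMSO and AraC were not above the share of all genes. MEF2C fell in all 3 comparisons, from 78.5 ± 5.53 to 11.4 ± 5.84 CPM under DMSO (SD, n = 2, log2 fold change -2.77 ± 0.38, edgeR adjusted p = 0.0125). Its relative MEF2D rose from 94.1 ± 6.37 to 446 ± 88.5 CPM (2.26 ± 0.18, edgeR adjusted p = 0.00371). FOXO1 fell from 46.1 ± 6.36 to 8.77 ± 3.75 CPM (-2.39 ± 0.33, edgeR adjusted p = 0.0118), while the kinase MAPK7 was not called (13.9 ± 0.442 and 11.7 ± 2.71 CPM). Under AraC and venetoclax the calls were in the same direction, at -2.57 and -3.45 for MEF2C, 1.35 and 1.49 for MEF2D, and -2.81 and -2.98 for FOXO1. After MK-2206, a description here, MEF2C was at 9.61 ± 4.71, MEF2D at 136 ± 21.2 and FOXO1 at 83.2 ± 20.7 CPM.

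Of 4 ubiquitin ligases of KLF proteins, SMURF1 and FBXW7 were called higher in all 3 comparisons, where 25.1%, 29.3% and 24.3% of all genes were called. WWP1 and ITCH were not called (medians of the 4 genes 0.72, 0.63 and 0.72). SMURF1 went from 20.4 ± 1.83 to 49 ± 1.22 CPM under DMSO (1.28 ± 0.13, edgeR adjusted p = 0.00536) and FBXW7 from 26.8 ± 0.317 to 85.8 ± 3.07 CPM (1.69 ± 0.11, edgeR adjusted p = 0.00233). Among 6 corepressors that KLF proteins recruit, the 1 call over the 3 comparisons was HDAC2, lower under AraC, which is below the share of all genes in each. Among 4 SP factors, the nearest relatives of the KLF family, SP1 was higher and SP4 lower under AraC, and SP4 was lower under venetoclax. That makes 0, 2 and 1 of 4 called, against 25.1%, 29.3% and 24.3% of all genes. HDAC2, SP1, SP4, MAPK7, S1PR1 and ITGB7 are named after their values were seen. Of 8 TGF-beta pathway genes 4, 4 and 2 were called (medians 0.12, 0.14 and -0.12), against 25.1%, 29.3% and 24.3% of all genes: the receptor TGFBR2 fell from 128 ± 6.31 to 60.1 ± 5.54 CPM under DMSO (-1.09 ± 0.11, edgeR adjusted p = 0.00599), and SKIL, a repressor of SMAD activity, rose from 3.46 ± 0.149 to 18.6 ± 6.69 CPM (2.43 ± 0.31, edgeR adjusted p = 0.00978). All 4 genes of the glucocorticoid list were called in each comparison, 2 in each direction, where 25.1%, 29.3% and 24.3% of all genes were. The receptor NR3C1 rose from 56.6 ± 0.796 to 173 ± 18.8 CPM under DMSO (1.63 ± 0.12, edgeR adjusted p = 0.00288) and its target TSC22D3 from 4.58 ± 0.745 to 32 ± 27.3 CPM (2.80 ± 0.73, edgeR adjusted p = 0.061). The targets FKBP5 and PER1 fell, from 296 ± 34.8 to 111 ± 16 CPM (-1.41 ± 0.16, edgeR adjusted p = 0.00777) and from 59 ± 1.49 to 14.7 ± 2.91 CPM (edgeR adjusted p = 0.00402). The call of TSC22D3 under DMSO was lost without either control DMSO library (adjusted p = 0.235 and 0.208), and its log2 fold change was 1.44 without replicate 1 and 3.48 without replicate 2 of FOXM1-KD DMSO. Under venetoclax single omissions ended those of SMURF1, TGFBR2, SKIL and NR3C1.

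Of 5 genes known as KLF2 targets, 3 were called in FOXM1-KD cells under DMSO (1 higher, 2 lower), 4 under AraC (2 higher, 2 lower) and 3 under venetoclax (2 higher, 1 lower), against 25.1%, 29.3% and 24.3% of all genes. NOS3 rose from 0 and 0 to 42 and 49 counts under DMSO, from 0 and 1 to 293 and 221 under AraC, and from 0 and 0 to 21 and 36 under venetoclax. With AraC against DMSO, 3 of the 5 were called in control cells and 4 in FOXM1-KD cells, all higher. Of all genes, 6.69% (control cells) and 11.6% (FOXM1-KD cells) were called. ITGB7 rose in both cell lines and NOS3 in FOXM1-KD cells. S1PR1 also rose in both, but at few counts, from 1 and 0 to 9 and 13 in control cells. In FOXM1-KD cells it went from 0 and 0 to 7 and 5 counts. The integrin gene ITGB7 had 29 and 56 counts with DMSO and 934 and 738 with AraC in FOXM1-KD cells. Among the other KLF genes, KLF1, a factor of red cell precursors, had at most 2 counts in any control library without MK-2206 and 23 to 40 in each FOXM1-KD library. KLF15 had 31 to 84 counts in the FOXM1-KD libraries, against at most 4 in those control libraries. Both were called higher in the 3 comparisons, and of the 7 other KLF genes 3 of 6 tested were called under DMSO, 2 of 5 under AraC and 3 of 6 under venetoclax, against 25.1%, 29.3% and 24.3% of all genes. The third call was KLF12, a repressor, which was lower under DMSO (28.5 against 61.3 CPM, -1.10 ± 0.18, edgeR adjusted p = 0.0175) and venetoclax (12.1 against 63.4 CPM, -2.39 ± 0.41, edgeR adjusted p = 4.63e-07), and which is named after its values were seen.

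The members and other genes were finally compared by the correlation of log2(mean CPM + 0.5) over the 8 conditions, a description dominated by the MK-2206 condition. KLF2 and KLF4 had r = 0.98 (0.96 over the 7 conditions without MK-2206), KLF7 and KLF11 had 0.96 (0.96), and KLF5 and KLF6 had 0.96 (0.39). KLF2 and KLF3 ran in opposite directions with r = -0.90 (-0.65). Of 10798 protein-coding genes reaching 10 CPM in a condition, those most like KLF2 were TNFSF9, AK5, GADD45B, BAG3 and ARFGAP1, with r from 0.992 to 0.995 and from 0.974 to 0.99 without MK-2206. GADD45B was at 7.13 CPM with DMSO and 1100 CPM with MK-2206 in control cells. Those most like KLF4 were VGF, ZNF622, HTR7, GOLGA3 and PCSK5 (r from 0.996 to 0.998, and from 0.988 to 0.997 without MK-2206), and those most like KLF6 were WDR47, NDUFA13, PLA2G4C, CCNL1 and RABGEF1 (0.991 to 0.994, and 0.835 to 0.929 without MK-2206).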

How the data were processed

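RNA of 16 KG-1 libraries, 2 biological replicates for each of 8 conditions, was measured by RNA-seq. According to the study's methods, the authors prepared the libraries in 1 batch with a strand-specific kit after removal of ribosomal RNA (the labels name another strand-specific kit), aligned reads to hg38 with STAR and counted them on Ensembl genes with featureCounts. The deposited values are raw counts per gene. The library linker carried unique molecular identifiers. Whether they were used in the counting, and its strand setting, are not given in the sources used here, so counts were taken as reads and intervals cover counting error only. The scaling below assumes that most genes did not change, which bears on MK-2206 and FOXM1-KD.

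Groups were taken from the labels. Gene types, exon lengths and coordinates came from GENCODE release 44, in which all 10 genes were found. The main test was the quasi-likelihood test of edgeR 4.0.16 (R 4.3.3) after TMM scaling. Each comparison was fitted on its own 4 libraries, and each interaction on 8. Genes without any count were left out, and p-values were adjusted by Benjamini-Hochberg over all genes left. A call needed both an adjusted p under 0.1 and a change of 2-fold or more, the limits of the study, which took its adjusted p from a comparison of several groups. Fitted fold changes used a prior count of 0.125. CPM were scaled over all 16 libraries. Ratios for near-zero KLF4 carry exact binomial (Clopper-Pearson) 95% intervals of pooled counts.

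The members, the gene lists and the markers were chosen with earlier results of these data known. Named genes were the 10 members, FOXM1, list genes called in the same direction in all 3 comparisons of FOXM1-KD with control, and the 5 genes most like KLF2, KLF4 and KLF6. Some genes of the lists are not reported here. Promoter sequences are those of RefSeq on GRCh38.p14. KLF4 and KLF11 overlap opposite-strand lncRNA genes by 357 and 416 exonic bases that were not analysed here, and KLF7 overlaps MYOSLID by 67 bases, which had at most 6 counts in any library.

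The count test was tested on simulated data for FOXM1-KD against control under AraC (23532 genes, 200 changed), where it recovered 200 with 0.99% of calls false. Recovery near 2-fold, or in genes of few counts, was not tested. Recovery with as many genes changed as were called in the measured comparison (29.3%) was not tested. The 2 libraries of each condition were distinct beyond counting error (8.58 to 103 chi-square units per degree of freedom). The p-values rest on 2 cultures of 1 cell line per condition and on a spread that the test shares between genes. The size of the very small ones therefore depends on the setting. The labels number the replicates of MK-2206, AraC and venetoclax. Same-numbered libraries deviated together (r from 0.482 to 0.797 over 10 pairs of groups and 11111 genes). Whether the numbers pair the samples, or the libraries share another difference, was not tested. Alternatives were DESeq2 1.42.0, its size factors in edgeR, total counts only, filterByExpr, all 16 libraries in 1 fit, the adjusted p across 8 groups, a prior count of 2, the replicate block and leaving out each library. Plots were drawn with matplotlib 3.10.9 in Python 3.11.15.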

Additional observations from a re-analysis of the deposited data

Results flagged for a closer look

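The response of KLF3 to AraC differed between the cell lines by a log2 difference of -0.92 (interaction term, edgeR adjusted p = 0.0408), and that of KLF10 by 0.88 (edgeR adjusted p = 0.0704). Both were under 2-fold and so were not called. The 2 FOXM1-KD DMSO libraries differed widely in both genes (KLF3 at 63.9 and 34.6 CPM, KLF10 at 23.9 and 14.5 CPM), and without 1 of them the difference was -0.41 for KLF3 (replicate 1 left out) and 0.43 for KLF10 (replicate 2 left out).

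With AraC all control libraries of KLF7 lay above DMSO and all FOXM1-KD libraries below it, a log2 difference of -0.55 whose interaction term missed the threshold (edgeR adjusted p = 0.537). The control libraries barely separated, at 6.98 and 7.84 CPM with AraC against 6.96 and 6.15 with DMSO. With venetoclax all control libraries of KLF6 lay above DMSO and all FOXM1-KD libraries below it, at -0.88 (edgeR adjusted p = 1).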

How the results depend on the processing

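The number of KLF genes called and the KLF2 fold change with MK-2206 were followed together over the settings. For MK-2206 the number was that of genes at 2-fold or more, without a test. Numbers stayed within 1.5 times the main number, and KLF2 within its replicate spread, in 74 of 74 results that kept all libraries. With 1 library left out, 46 of 56 stayed so. For venetoclax and STL427944 in control cells and for both interactions the main number was 0, and 0 again was taken as the same. The replicate block, possible for FOXM1-KD against control under AraC and venetoclax, changed no count of KLF calls (5 and 4) and gave 6946 against 7217 and 6186 against 6056 genes in all. No paired analysis was possible for the other comparisons because the DMSO and STL427944 libraries carry no replicate number. No direction of a called gene reversed. Very small p-values changed much with the setting. For FOXM1-KD against control under AraC the highest adjusted p (edgeR or DESeq2) was 6.23e-06 for KLF4, 6.06e-06 for KLF11 and 2.47e-05 for KLF7. For MK-2206, total counts only gave -1.37 for KLF3, 3.35 for KLF6, 1.96 for KLF7 and 3.20 for KLF11, and a prior count of 2 gave 10.76 for KLF4, whose fitted value was 13.06. Leaving out 1 library gave 0 to 2 KLF calls for AraC in control cells, 0 to 4 for AraC in FOXM1-KD cells, 0 to 1 for venetoclax in FOXM1-KD cells, and 0 to 2 for the AraC interaction, where KLF10 was called without replicate 1 of FOXM1-KD DMSO and KLF3 and KLF11 without replicate 2. With 1 library left in a group, its spread was taken to be that of the other group. Over all genes, the adjusted p across 8 groups gave 3296 against 1527 calls for AraC in control cells, 4783 against 2714 for AraC and 3417 against 496 for venetoclax in FOXM1-KD cells, and 1937 and 2479 against 0 for venetoclax and STL427944 in control cells. One fit of 16 libraries gave 857 for AraC, 34 for venetoclax and 89 for STL427944 in control cells, and DESeq2 gave 289 for venetoclax in FOXM1-KD cells, 1 for STL427944 and 60 against 196 for the venetoclax interaction. filterByExpr gave 856 against 1337 for the AraC and 0 for the venetoclax interaction. Without either control DMSO library FOXM1-KD under DMSO gave 3515 and 3461 against 5832 genes, without replicate 1 of FOXM1-KD venetoclax that comparison gave 3784 against 6056, and without replicate 1 of STL427944 that drug gave 1298. Venetoclax in FOXM1-KD cells gave 234 and 216 without either DMSO library, and single omissions gave 277 to 1753 for the AraC and 0 to 191 for the venetoclax interaction. The cause of these shifts was not tested. The MK-2206 libraries, with the fewest counts, measure genes of few counts least precisely.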
